A study of Saccharomyces cerevisiae with 4 samples.

Results

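The 8 ferric reductase genes FRE1 to FRE8 and the 2 copper transporter genes CTR1 and CTR3 of budding yeast (Saccharomyces cerevisiae) are described here, 10 of the 6697 genes in the deposited table. They were taken by gene symbol, as the rows whose product name equals one of these symbols, with no cut on a measured value. The set of symbols was chosen with earlier results of these data known. All 10 were among the 6503 genes that passed the filter on low values and were tested.

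Fre proteins are membrane flavocytochromes that carry electrons across a membrane to ferric iron and cupric copper. At the cell surface this makes ferrous iron, which the Fet3-Ftr1 oxidase and permease pair takes up, and cuprous copper, which Ctr1 and Ctr3 take up. Fet3 is itself a copper enzyme, so iron uptake in yeast depends on copper uptake. When iron is short the activator Aft1 binds promoters that hold the core TGCACCC, and when copper is short the activator Mac1 binds promoters that hold the core TTTGCTC.

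RNA sequencing compared a strain with a tag of 9 Myc epitopes on the N terminus of Swd2 (9Myc-Swd2) with an untagged wild type (WT), with 2 libraries of each. Swd2 is a subunit shared by the Set1 histone H3 lysine 4 methyltransferase complex and the cleavage and polyadenylation factor. The question was how gene expression differs between the tagged and the untagged strain. Both strains were cultured in YPD (yeast extract, peptone and glucose) at 30 °C to an OD600 of 1, so no iron or copper shortage was imposed on either group. No source used here gives the strain background, the way the tag was introduced or the number of clones. The strains also differed at LEU2, a leucine synthesis gene often used as a selectable marker and named after its value was seen, which had 2276 and 2163 normalized counts in 9Myc-Swd2 and 31.4 and 22.4 in WT. Its part in the results for the FRE and CTR genes was not tested. Nor do the labels state separate cultures for the replicates; the p-values thus measure the spread between these libraries alone, which may be technical.

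Values are the authors' normalized read counts, that is, reads per gene divided by 1 size factor per library. Reads assigned to genes came to 7849193 and 8316221 in the 9Myc-Swd2 libraries and to 8388090 and 8327878 in the WT libraries. The 10 genes had between 130 and 2428 reads in a library. A gene was called higher or lower at an adjusted p under 0.05 (limma-trend on log2 of the value plus 1, Benjamini-Hochberg over all tested genes). Over all tested genes 43.7% were called, 22.3% higher and 21.4% lower. Genes of chromosome XI stood apart as a whole: 90.6% of its 342 tested genes were called higher and their median log2 fold change was 0.90, against -0.02 for the genes of all other chromosomes. Of the 10 genes FRE2 alone lies on chromosome XI, as does SWD2 itself, which had a mean of 1025 ± 78.9 normalized counts in 9Myc-Swd2 and 343 ± 11.5 in WT (SD, n = 2 each).

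Of the 8 reductase genes 4 were higher in the tagged strain and 1 was lower, mostly by small amounts, and neither copper transporter gene passed the test. FRE2 rose 2.73-fold, FRE5, FRE8 and FRE6 rose by 1.31, 1.29 and 1.16-fold, and FRE7 fell to 0.828 of its WT level. FRE1, FRE3, FRE4, CTR1 and CTR3 did not pass. That makes 4 of 10 called higher and 1 of 10 lower, against 22.3% and 21.4% of all tested genes. Leaving FRE2 out, 3 of 9 were called higher and 1 of 9 lower, against 18.5% and 22.6% of the tested genes off chromosome XI. The median log2 fold change was 0.18 over the 10 genes and 0.21 over the 8 FRE genes, against 0.001 over all tested genes, whose middle 50% lay between -0.23 and 0.23. The authors' deposited table called 4 of the 10 (FRE2, FRE5, FRE7 and FRE8) at the same threshold, and 33.3% of the genes with an adjusted p there.

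**Figure D1:**
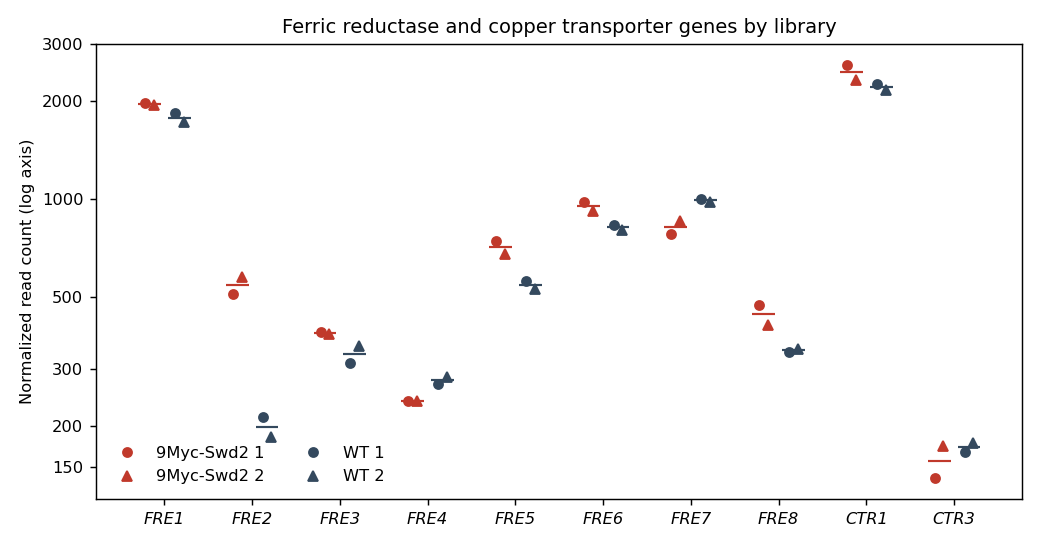
Normalized read count (log axis) of each of the 10 genes in the 2 libraries of 9Myc-Swd2 (red) and the 2 of WT (blue). Points are libraries and short lines are group means; the groups do not overlap for 9 of the 10 genes, CTR3 being the exception, and for 71.6% of all tested genes.

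**Figure D2:**
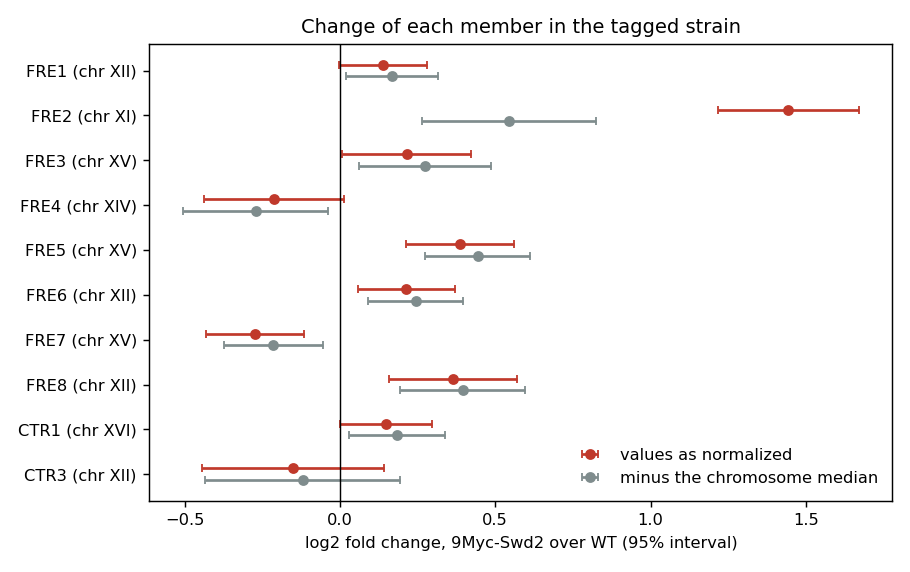
Log2 fold change of each gene, 9Myc-Swd2 over WT, with its 95% interval, from the values as normalized (red) and after subtracting the median of the gene's chromosome in each library (grey). FRE2 moves from 1.44 to 0.54 when its chromosome's median is subtracted, and each other gene keeps its sign.

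FRE1 and FRE2 encode the main surface reductases, which act on ferric and cupric ions in the medium. FRE1 (YLR214W, R64 chromosome XII, 568567 to 570627, plus strand, 1 exon) had 1977 and 1941 normalized counts in the 9Myc-Swd2 libraries and 1834 and 1727 in the WT libraries. Both tagged libraries lay above both WT libraries. The log2 fold change was 0.14 ± 0.07 (SE, 95% interval -0.0037 to 0.28) and did not pass (limma-trend adjusted p = 0.108). Differences above about 0.28 on this scale lie outside that interval.

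FRE2 (YKL220C, chromosome XI, 9091 to 11226, minus strand, 1 exon) had 509 and 575 normalized counts in the 9Myc-Swd2 libraries and 213 and 185 in the WT libraries. The groups were far apart, with means of 542 ± 46.2 in 9Myc-Swd2 and 199 ± 19.96 in WT (SD, n = 2 each). Its log2 fold change was 1.44 ± 0.11 (SE; limma-trend adjusted p = 7.26e-09). In the authors' deposited table it is 1.45 with an adjusted p of 9.51e-19.

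Because FRE2 shares the higher level of its chromosome, it was also set against that chromosome. After the chromosome median was subtracted in each library, FRE2 was higher by 0.54 ± 0.13 (SE, 95% interval 0.26 to 0.82), with a limma-trend adjusted p of 0.00608. In that fit 21.9% of the chromosome XI genes were called higher. Of the 342 tested genes of the chromosome 13 had a larger log2 fold change than FRE2, and 12 of the 318 with a mean of at least 50 normalized counts. Without WT replicate 2 the difference from the chromosome was 0.45 and did not pass (adjusted p = 0.101).

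**Figure D3:**
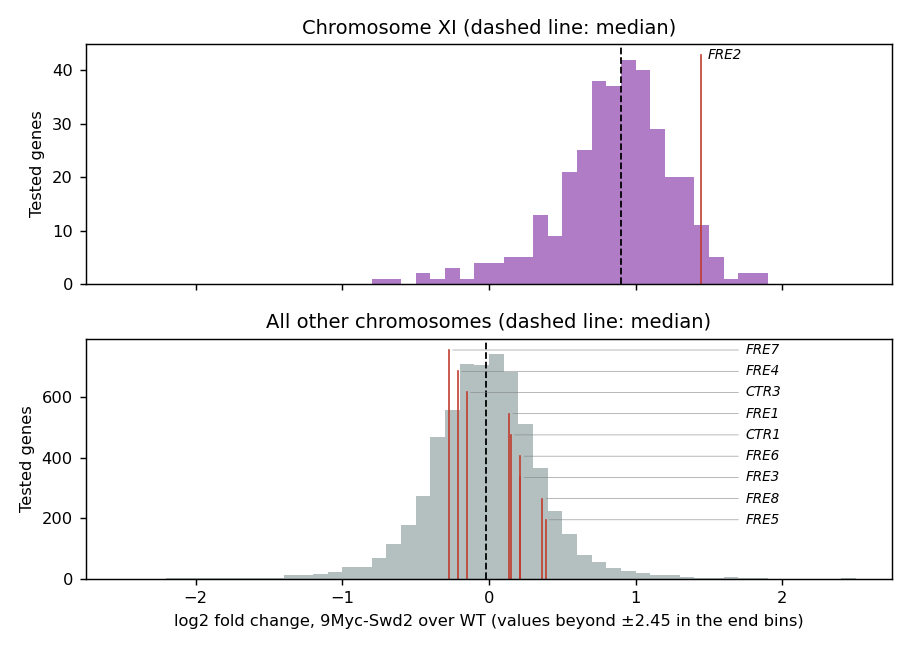
Number of tested genes by log2 fold change, 9Myc-Swd2 over WT, for chromosome XI (upper panel) and all other chromosomes (lower panel), with red lines at the described genes and dashed lines at the panel medians of 0.90 and -0.02. FRE2 lies in the upper tail of its chromosome, and the other 9 genes lie within the bulk of the lower distribution.

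The genes around FRE2 did not all move alike. On its lower-coordinate side MCH2, which encodes a monocarboxylate permease homologue, had 247 ± 3.13 normalized counts in 9Myc-Swd2 and 92.7 ± 1.93 in WT (log2 fold change 1.40), and YKL222C had 732 ± 39.3 and 361 ± 10.6 in the same order (1.02). On the other side COS9, of a subtelomeric gene family, and SRY1, a dehydratase gene, changed by 0.36 and 0.26, and the lactate permease gene JEN1 by 0.72. All 5 were called higher, and COS9, SRY1 and JEN1 lay below the chromosome's median of 0.90. PAU16 was read at a mean of 8.82 normalized counts in 9Myc-Swd2 and 12.5 in WT and did not pass (adjusted p = 0.423). COS and PAU genes have close paralogs, so their own counts are uncertain.

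FRE3 and FRE4 encode reductases of iron bound to siderophores, the iron chelators that microbes release. FRE3 (YOR381W, chromosome XV, 1055545 to 1057680, plus strand, 1 exon) had 389 and 383 normalized counts in 9Myc-Swd2 and 314 and 353 in WT. The tagged libraries both lay above the WT ones, which differed from each other more than the tagged pair did. The log2 fold change of 0.21 ± 0.10 (SE, 95% interval 0.0073 to 0.42) did not pass (limma-trend adjusted p = 0.0878), and relative to the chromosome median it was 0.27 and passed (adjusted p = 0.0424).

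FRE4 (YNR060W, chromosome XIV, 739951 to 742110, plus strand, 1 exon) had 238 and 239 normalized counts in 9Myc-Swd2 and 269 and 284 in WT. Both tagged libraries lay below both WT libraries, opposite in direction to FRE3. The log2 fold change was -0.21 ± 0.11 (SE, 95% interval -0.44 to 0.014) and did not pass (adjusted p = 0.122). Coding regions of FRE2 and FRE3 were 77.0% identical in a global alignment, with a longest identical run of 34 bases. All other pairs of FRE genes were between 57.7% and 65.3% identical. Reads that fall within such a run could be assigned to either of FRE2 and FRE3, and no source used here says how the authors' counting treated them.

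FRE5, FRE6 and FRE8 encode reductases that are not known as surface enzymes; Fre6 acts at the vacuole membrane, where it helps to release stored iron and copper. All 3 were called higher. FRE5 (YOR384W, chromosome XV, 1061564 to 1063648, plus strand, 1 exon) had 741 and 678 normalized counts in 9Myc-Swd2 and 558 and 528 in WT. Its groups were clearly apart, and its log2 fold change was 0.39 ± 0.08 (SE; limma-trend adjusted p = 0.00107).

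FRE6 (YLL051C, chromosome XII, 37333 to 39471, minus strand, 1 exon) had 978 and 920 normalized counts in 9Myc-Swd2 and 833 and 804 in WT. Its log2 fold change was 0.21 ± 0.07 (SE; limma-trend adjusted p = 0.0259). This was the least stable of the calls. It was lost without 9Myc-Swd2 replicate 1 (adjusted p = 0.107), without WT replicate 1 (0.0901) and without WT replicate 2 (0.197), and in the authors' deposited table (0.12).

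FRE8 (YLR047C, chromosome XII, 239347 to 241407, minus strand, 1 exon) had 473 and 410 normalized counts in 9Myc-Swd2 and 338 and 346 in WT. The WT libraries were closer to each other than the tagged ones, and the groups were apart. Its log2 fold change was 0.36 ± 0.10 (SE; limma-trend adjusted p = 0.00588). The call was lost without 9Myc-Swd2 replicate 1 (adjusted p = 0.053) and without WT replicate 1 (0.0566).

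FRE7 encodes a reductase homologue known as a target of the copper activator Mac1, not of Aft1. FRE7 (YOL152W, chromosome XV, 40748 to 42610, plus strand, 1 exon) had 782 and 858 normalized counts in 9Myc-Swd2 and 999 and 981 in WT. It was the only one of the 10 genes called lower, and both tagged libraries lay below both WT libraries. The log2 fold change was -0.27 ± 0.08 (SE, 95% interval -0.43 to -0.11; limma-trend adjusted p = 0.00687). The call was lost without WT replicate 1 (adjusted p = 0.0726) and without WT replicate 2 (0.0527).

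CTR1 and CTR3 encode high-affinity copper transporters of the plasma membrane, both known Mac1 targets. CTR1 (YPR124W, chromosome XVI, 786208 to 787428, plus strand, 1 exon) had 2582 and 2328 normalized counts in 9Myc-Swd2 and 2254 and 2170 in WT. The tagged libraries lay above the WT ones, but they differed from each other by 3.56 times the standard deviation that counting alone gives. The log2 fold change was 0.15 ± 0.07 (SE, 95% interval -0.00048 to 0.30) and did not pass (limma-trend adjusted p = 0.0999). Without 9Myc-Swd2 replicate 2 it was 0.22 and passed (adjusted p = 0.0104). The reading frame YPR123C, with no RefSeq record, is listed by name next to CTR1 and had a mean of 257 normalized counts over the 4 libraries; whether the 2 share reads was not tested.

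CTR3 (YLR411W, chromosome XII, 947253 to 947978, plus strand, 1 exon) had 138 and 173 normalized counts in 9Myc-Swd2 and 166 and 178 in WT. It was the one gene of the 10 whose groups overlapped. The log2 fold change was -0.15 ± 0.14 (SE, 95% interval -0.44 to 0.14) and did not pass (limma-trend adjusted p = 0.407). In the R64 reference a Ty2 retrotransposon, YLRWTy2-1 (chromosome XII, 941192 to 947150), ends 102 bases before the CTR3 start codon. Such an insertion is known to silence CTR3 in many laboratory strains. Whether these strains carry it is not known from the sources used here; both strains had reads over CTR3 in every library.

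Compared per kilobase of coding length, the 10 genes spanned a wide range of levels. CTR1 had the highest level in both groups, with 2010 ± 147 normalized counts per kb in 9Myc-Swd2 and 1812 ± 48.7 in WT (SD, n = 2 each). That placed it above 87.3% of tested genes in 9Myc-Swd2 and above 86.3% in WT. FRE1 came next, with 950 ± 12.4 per kb in 9Myc-Swd2 and 864 ± 36.8 in WT. FRE6, FRE7 and FRE5 followed in 9Myc-Swd2 at 444, 440 and 340 per kb; in WT the order was FRE7, FRE6 and FRE5, at 531, 383 and 260.

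The lower end of the order differed between the strains through FRE2, which lies on chromosome XI, where the median log2 fold change was 0.90. The levels are given without allowance for that chromosome. In WT FRE2 had the lowest level of the 10, at 93.1 ± 9.34 per kb, below FRE4 at 128, FRE3 at 156 and FRE8 at 166. In 9Myc-Swd2 FRE2 was at 254 ± 21.6 per kb and ranked 6, above CTR3 at 215, FRE8 at 214, FRE3 at 181 and FRE4 at 110. Neighbours in the order whose library values overlapped were FRE6 and FRE7, FRE2 and CTR3, and CTR3 and FRE8 in 9Myc-Swd2, and FRE8 and FRE3 in WT.

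Summed per kb over the 8 FRE genes, the level was 2934 ± 25.6 in 9Myc-Swd2 and 2581 ± 52.3 in WT (SD, n = 2 each). This sum includes FRE2 of chromosome XI, at 254 per kb in 9Myc-Swd2 and 93.1 in WT, without allowance for that chromosome. FRE2 made up 8.65% ± 0.812 of the sum in 9Myc-Swd2 and 3.602% ± 0.289 in WT, without allowance for the higher level of chromosome XI. FRE7 made up 15.0% ± 1.12 in 9Myc-Swd2 and 20.6% ± 0.149 in WT. FRE1 held the largest share in every library, 32.4% ± 0.140 in 9Myc-Swd2 and 33.5% ± 0.746 in WT. CTR1 made up 90.3% ± 2.03 of the summed CTR1 and CTR3 level in 9Myc-Swd2 and 88.4% ± 0.760 in WT. The groups overlapped in this share, at 91.7% and 88.9% in the 9Myc-Swd2 libraries and 89.0% and 87.9% in the WT libraries. These shares describe RNA and not enzyme activity, and in bulk RNA more cells with a transcript and more transcript per cell cannot be told apart.

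**Figure D4:**
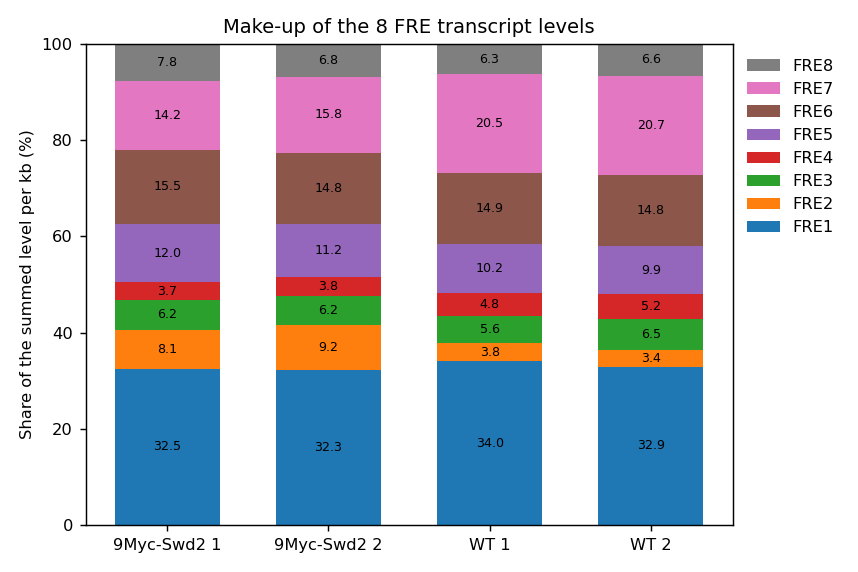
Share of each FRE gene in the summed level per kb of coding length of the 8 FRE genes, in percent, for each library (9Myc-Swd2 left, WT right). The FRE2 segment is 8.1% and 9.2% in the tagged libraries and 3.8% and 3.4% in the WT libraries. It is shown without allowance for the higher level of chromosome XI. The FRE7 segment is 14.2% and 15.8% in the tagged libraries and 20.5% and 20.7% in WT.

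Promoter sequences were read from the R64 genome to show where the Aft1 and Mac1 cores lie. In windows of 300 bases (250 before the start codon and 50 after it) on both strands, TGCACCC was present for 2 of the 10 genes, FRE5 and FRE6, and for 1.28% of 6007 yeast promoters. The shorter GCACCC, which lies within it, was present for the same 2 genes and 4.23% of promoters. TTTGCTC was present for FRE1 and for 5.38% of promoters. Both genes with an Aft1 core in this window were called higher, as were 18.5% of all tested genes off chromosome XI. The FRE6 call was lost in 9 of 17 alternatives, with DESeq2 and the authors' deposited comparison, equal in value, each counted. The 2 windows are printed in the direction of the gene with the cores, in either orientation, in capitals; FRE5 is chrXV:1061314-1061613, plus strand, and FRE6 is chrXII:39422-39721, minus strand.
FRE5: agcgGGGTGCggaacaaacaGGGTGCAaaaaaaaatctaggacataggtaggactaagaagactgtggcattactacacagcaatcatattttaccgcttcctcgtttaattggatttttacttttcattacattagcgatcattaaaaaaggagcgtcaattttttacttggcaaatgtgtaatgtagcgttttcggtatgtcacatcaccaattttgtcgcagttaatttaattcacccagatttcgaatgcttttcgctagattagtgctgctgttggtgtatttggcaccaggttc
FRE6: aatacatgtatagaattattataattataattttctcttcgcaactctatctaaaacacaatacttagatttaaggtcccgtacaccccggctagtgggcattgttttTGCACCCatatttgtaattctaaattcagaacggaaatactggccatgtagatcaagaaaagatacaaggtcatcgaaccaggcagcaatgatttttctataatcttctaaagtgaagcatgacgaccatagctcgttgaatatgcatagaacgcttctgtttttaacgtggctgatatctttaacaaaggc

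A wider window of 500 bases before the start codon, chosen after the first had been searched, held TGCACCC for 6 of the 10 genes and for 2.31% of 6006 promoters. The 6 are FRE2, FRE3, FRE4, FRE5, FRE6 and FRE8. Of these FRE2, FRE5, FRE6 and FRE8 were called higher, against 22.3% of all tested genes, and FRE3 and FRE4 did not pass. FRE2 lies on chromosome XI, where 90.6% were called higher. FRE1, FRE7, CTR1 and CTR3 had no TGCACCC in this window, which says only that these letters are not there. Forms of the Aft1 core other than TGCACCC and GCACCC were not searched. In the R64 reference the CTR3 window is mostly sequence of the Ty2 retrotransposon, which ends 102 bases before the start codon. The cores are shown in capitals with their flanks in the direction of the gene; counted back from the start codon, the first base of the core is at -430 in FRE2, -427 in FRE3, -437 in FRE4, -331 and -230 in FRE5, -142 in FRE6 and -330 in FRE8.
FRE2 (chrXI:11639-11667, minus strand): ttattcgtaatTGCACCCaggtctttttt
FRE3 (chrXV:1055107-1055135, plus strand): cttttgtaaaaTGCACCCatatctcattt
FRE4 (chrXIV:739503-739531, plus strand): gtctaaaaattTGCACCCtatttaacata
FRE5, far core (chrXV:1061222-1061250, plus strand): ccccattttttTGCACCCtttcctagaat
FRE5, near core (chrXV:1061323-1061351, plus strand): cggaacaaacaGGGTGCAaaaaaaaatct
FRE6 (chrXII:39596-39624, minus strand): ggcattgttttTGCACCCatatttgtaat
FRE8 (chrXII:241720-241748, minus strand): aaaaagaaaaaGGGTGCAaataacatgta

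TTTGCTC was found within 500 bases for FRE1 and CTR1, which was 2 of the 10 genes, and for 8.57% of promoters. Neither gene passed the test. Their log2 fold changes were 0.14 for FRE1 and 0.15 for CTR1. FRE7 and CTR3, named above as Mac1 targets, had no TTTGCTC in this window, which says only that these letters are not there. Other forms of the Mac1 core were not searched. For CTR3 the window is mostly Ty2 sequence in the R64 reference, as stated above. The first base of the core is at -286, -269 and -96 in FRE1 and at -334 and -311 in CTR1.
FRE1, far core (chrXII:568270-568298, plus strand): tcgccgatattTTTGCTCacctttttttt
FRE1, middle core (chrXII:568287-568315, plus strand): cacctttttttTTTGCTCatcgaaaattg
FRE1, near core (chrXII:568460-568488, plus strand): ttttgaagtcgTTTGCTCtcttccatgct
CTR1, far core (chrXVI:785863-785891, plus strand): atcatgggataTTTGCTCaagacgacggt
CTR1, near core (chrXVI:785886-785914, plus strand): gacggtaaaatGAGCAAAaatggcacgat

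FRE3 and FRE5 lie on either side of FIT2 and FIT3, genes for cell wall mannoproteins that retain siderophore-bound iron. FIT3 is read away from FRE5, with 508 bases between their coding starts. The paired GCACCC cores of the FRE5 window lie in this stretch, 246 and 230 bases from FRE5 and 268 and 284 from FIT3. So does the far TGCACCC core of the wider window, at -331 from FRE5. FIT3 had 5364 and 4345 normalized counts in 9Myc-Swd2 and 1282 and 1340 in WT, a log2 fold change of 1.88. FRE5, across the same stretch, changed by 0.39. FIT2 changed by 1.496 and FRE3, downstream of which it lies, by 0.21.

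Other genes at this locus moved in both directions. YOR385W, next to FRE5 on its far side, had 725 ± 111 normalized counts in 9Myc-Swd2 and 1561 ± 64.8 in WT (SD, n = 2 each), and its log2 fold change was -1.11. The DNA photolyase gene PHR1 was also called lower, at -0.46, and so was the alcohol acetyltransferase gene ATF1, at -0.24. YOR387C was called higher, at 0.47, whereas AMF1, RDR1 and the small reading frame YOR381W-A did not pass. The difference between FRE5 or FRE3 and its neighbours was not tested.

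**Figure D5:**
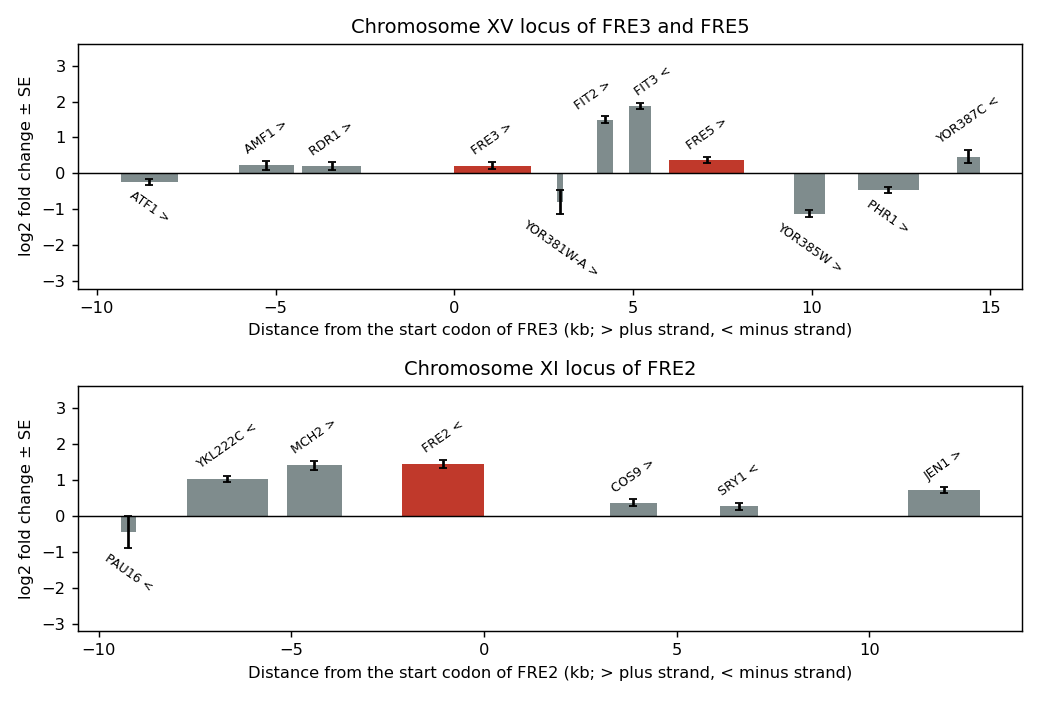
Log2 fold change, 9Myc-Swd2 over WT, with its standard error, of the genes around FRE3 and FRE5 (upper panel) and around FRE2 (lower panel), against distance in kb from the start codon of FRE3 or FRE2. Bars span the coding region; FIT2 and FIT3 stand at 1.496 and 1.88 between FRE3 (0.21) and FRE5 (0.39), and MCH2 at 1.40 stands beside FRE2 (1.44).

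Other iron uptake genes, those of the Fet3-Ftr1 pair, of siderophore transporters and of the wall proteins that retain siderophore-bound iron, were set beside the FRE genes as a list of 9. Of these 8 were called higher, 0 lower and 1 did not pass, with a median log2 fold change of 0.76. None lies on chromosome XI, and of all tested genes off that chromosome 18.5% were called higher and 22.6% lower. FIT3 and FIT2 led, followed by the siderophore transporter genes SIT1 (1185 ± 45.5 normalized counts in 9Myc-Swd2 and 592 ± 22.3 in WT, log2 fold change 1.00) and ARN1 (0.77). FET3 and FTR1, the partners of the surface reductases, were at 0.49 and 0.28 and were chosen after their values were seen, as was ARN2, which did not pass (0.05, adjusted p = 0.659). FRE1, the most abundant surface reductase transcript, was at 0.14.

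Regulators of iron and copper genes were measured too. AFT1 had 927 and 724 normalized counts in 9Myc-Swd2 and 682 and 587 in WT, and was called higher (log2 fold change 0.37, limma-trend adjusted p = 0.00751). Its tagged libraries differed by 4.91 times the standard deviation that counting alone gives, and its WT libraries by 2.73 times. AFT2, the paralog of AFT1, had 523 and 469 in 9Myc-Swd2 and 520 and 484 in WT and did not pass (-0.02, adjusted p = 0.889). The copper activators did not pass either: MAC1 was at -0.13 (adjusted p = 0.290) and CUP2, which switches on metallothionein genes when copper is high, at -0.17 (adjusted p = 0.323).

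Of 21 other genes of the iron regulon, 10 were called higher, 2 lower and 9 did not pass, with a median log2 fold change of 0.20. Over all tested genes 22.3% were called higher and 21.4% lower. Off chromosome XI 8 of 19 of the list were called higher and 2 lower, against 18.5% and 22.6% of tested genes. On chromosome XI lie ECM4, a glutathione transferase gene (1.10), and MRS4, a mitochondrial iron carrier gene (0.77). Relative to the chromosome median ECM4 was at 0.20 and MRS4 at -0.13, and neither passed. The heme oxygenase gene HMX1 was at 1.11. The genes called lower were ISU2, for an iron-sulfur scaffold (-0.78), and the vacuolar iron importer gene CCC1 (-0.22), the last chosen after its value was seen.

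In a list of 5 other metal transport genes, 4 were called lower, 0 higher and 1 did not pass, with a median log2 fold change of -0.31. None lies on chromosome XI, and of all tested genes off that chromosome 22.6% were called lower and 18.5% higher. FET4, a low-affinity iron and copper transporter gene, had 1858 and 1828 normalized counts in 9Myc-Swd2 and 2695 and 2733 in WT (-0.56). The zinc transporter gene ZRT1 was at -0.68, BSD2, which controls turnover of metal transporters, at -0.31 and the manganese transporter gene SMF2 at -0.19. SMF1, named after its value was seen, did not pass.

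Of 19 copper handling genes, all off chromosome XI, 5 were called higher, 3 lower and 11 did not pass. Of all tested genes off that chromosome 18.5% were called higher and 22.6% lower. The median of the list was 0.02, beside which stand CTR1 at 0.15 and CTR3 at -0.15. Those called higher were COX17, a copper chaperone gene of the mitochondrion (427 ± 19.8 normalized counts in 9Myc-Swd2 and 238 ± 7.78 in WT, log2 fold change 0.84), CCC2, the gene of the copper pump that loads Fet3 (0.60), and COX23, ATX1 and CTR2. Those called lower were IRC7 (-0.59), CCS1, the chaperone gene of superoxide dismutase (-0.47), and PIC2. COX23, ATX1, CTR2 and PIC2 were chosen after their values were seen. CUP1-1 and CUP1-2, also chosen after their values were seen, are identical copies, so that their own values are uncertain.

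Genes whose pattern over the 4 libraries was nearest to that of a called gene were looked up among 5777 genes, by Euclidean distance between log2 values relative to WT. For FRE2 they were YKR104W and MRPL20, both on chromosome XI. For FRE5 they were SYP1 and YLR419W, for FRE6 RAD28 and MYO4, for FRE8 MIT1 and MRPL4, and for FRE7 MPC2 and PET130. None of the other 9 described genes was among these nearest patterns. With only 2 of 5777 genes kept for each, this does not tell whether the described genes share a pattern. AIM14, a further member of the reductase family by sequence, had 432 and 382 normalized counts in 9Myc-Swd2 and 455 and 445 in WT and did not pass (-0.15, adjusted p = 0.215).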

How the data were processed

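The submitters' processing notes name bcl2fastq 1.8.4 and build sacCer3. Aligner, counting tool and strand setting were not given in the sources used here, so reads of overlapping or antisense genes cannot be told apart. The libraries were directional, per the labels' protocols. The deposited table holds a signal, read counts that the authors divided by 1 size factor per library (each column's values were 100% whole multiples of a single step, tolerance 1e-06). The authors' deposited comparison holds log2 fold changes, their standard error as a score, and p-values with adjusted p-values, per the file headers. Here limma-trend (limma 3.58.1, R 4.3.3) was fitted to log2(value + 1) of 6503 genes with a mean of at least 1, with group as the only term, and tested on simulated data; such fold changes understate those of low genes. FRE2 was also tested after subtracting chromosome medians. Alternatives were edgeR 4.0.16 quasi-likelihood and DESeq2 1.42.0 on the recovered reads, other scalings, filters and pseudocounts, a replicate block and libraries left out; TMM scaling was added after seeing the data. Positions, coding lengths and sequences came from RefSeq R64, which sacCer3 names; 6014 of 6697 identifiers (89.8%) matched. Coding regions were aligned with Biopython 1.88 (match 2, mismatch -1, gap opening -5, extension -0.5). Named genes were the 10 members, SWD2, AIM14, 4 regulators, 3 neighbours on each side, at most 4 genes with the smallest p per list, and 2 nearest patterns per called member; others are said to be chosen later. The members and lists were chosen with earlier results of these data known.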

Additional observations from a re-analysis of the deposited data

How the results depend on the processing

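Of the 10 genes 5 were called. FRE2 and FRE5 were called in 17 of 17 alternatives that give them a value, FRE7 and FRE8 in 13, FRE6 in 8, CTR1 in 2, FRE3 in 1 and FRE1, FRE4 and CTR3 in 0. DESeq2 and the authors' deposited comparison gave the same values for the 10 genes and are each counted, so they are not separate checks. With no filter, and with limma without a trend, 2 were called (FRE2 and FRE5), and with a minimum log2 fold change of 1 only FRE2, 1 gene. Leaving out 1 library at a time gave 2 to 6 called, the group left with 1 library being assumed to vary like the other. Over all genes 2841 were called; no filter gave 1797, no trend 1866, a minimum log2 fold change of 1 gave 234, and leaving out 1 library gave 1777 to 3035. The FRE2 difference from its chromosome lay between 0.43 and 0.65 with 1 library left out, and did not pass without WT replicate 2. CTR3 changed sign without 9Myc-Swd2 replicate 1, to 0.012, and lay between -0.31 and 0.012 with 1 library left out. Replicate numbers carry no stated pairing. With a replicate block 6 of the 10 were called (CTR1 added, adjusted p = 0.0457), 3185 of all genes, and FRE2 differed from its chromosome by 0.54; the deviations of same-numbered libraries had r = 0.189 across 5778 genes, which are not independent replicates. Scaling to total reads called 1196 genes higher and 1728 lower, against 1448 and 1393 as normalized. The cause of these changes was not tested. With 2 libraries a group and 130 to 2428 reads per gene and library, the intervals of the 5 genes that did not pass limit how large a change could have been missed.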

Other observations

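Fre proteins carry heme and flavin and draw electrons from NADPH, so genes that make these cofactors were looked at as a list of 20. Of these 2 were called higher, 7 lower and 11 did not pass, with a median log2 fold change of -0.10. None lies on chromosome XI, and of all tested genes off that chromosome 18.5% were called higher and 22.6% lower. FLX1, the gene of a mitochondrial flavin carrier, had 432 ± 21.0 normalized counts in 9Myc-Swd2 and 225 ± 15.5 in WT (SD, n = 2 each; log2 fold change 0.94, limma-trend adjusted p = 9.94e-07), and HEM1, the first enzyme gene of heme synthesis, was at 0.37 and was chosen after its value was seen. RIB4, a riboflavin synthesis gene, was at -0.61, and the heme synthesis genes HEM4 and HEM15 at -0.83 and -0.53.

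Genes next to the other reductase and transporter genes moved in both directions. Beside FRE1, the spore wall gene CRR1 was called lower (-0.80) and the cyclophilin gene CPR6 higher (0.61). Beside FRE6, the aquaporin gene AQY2 (0.78), YLL053C (0.67), LDB18 (0.52) and YBT1 (0.24) were called higher and COF1 lower (-0.24). Beside FRE7, HPF1 was at 0.65 and DCP1 at -0.36, and beside FRE8, RPS0B was at -0.43 and YLR050C at -0.49. Beside FRE4, MNT4 was at -0.51 and YNR061C at -0.34. Beside CTR1, AXL1 was at 0.26 and CLB5 at -0.33, and beside CTR3, VIP1 was at 0.47 and INA1 at 0.30. The other neighbours of these genes did not pass or, for YLR410W-A, had no reads.

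Markers of mating type served as a check of what the cultures held. The 4 alpha markers measured summed to 10522 and 9540 normalized counts in 9Myc-Swd2 and 11212 and 11805 in WT, with 0 called higher and 2 lower. The 6 a markers summed to 1206 and 1248 in 9Myc-Swd2 and 917 and 759 in WT, with 3 called higher, 0 lower and 3 not passed. Over all tested genes 22.3% were called higher and 21.4% lower. Off chromosome XI 2 of 5 a markers were called higher and 2 of 3 alpha markers lower, against 18.5% and 22.6% of tested genes. The 2 a markers were MFA1 (log2 fold change 1.56) and AGA2 (1.27). Their counts were low, with means of 51.3 and 42.7 in 9Myc-Swd2 and 16.8 for each in WT. Each list has a marker on chromosome XI, whose median log2 fold change was 0.90: the a marker STE6 was at 0.72, and the alpha marker STE3 was at -0.09 (-0.99 relative to the chromosome median, limma-trend adjusted p = 2.77e-06). Their part in the results for the FRE and CTR genes was not tested.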
